A study of Mus musculus with 6 samples.

Results

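Vascular endothelial growth factors (VEGF) and angiopoietins, with their receptors, were examined in lung tissue of TSPO WT and TSPO KO mice. The set held 10 of the 23473 genes with a RefSeq row in the deposited table: the ligands Vegfa, Vegfc, Angpt1 and Angpt2, the receptors Kdr, Flt1, Flt4, Tek and Tie1, and the coreceptor Nrp1. They were chosen by name, and each gene was taken by its RefSeq transcript of largest total count. All 10 passed the filter on low counts, as did 14802 genes in all.

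Messenger RNA of whole lung was measured by RNA-seq, as read counts per transcript. The labels give a C57BL/6 background for both genotypes, and the study's methods C57BL/6J for the founder lines. Mice were aged 6 to 8 weeks. WT mice carried no deletion, and KO mice lacked the floxed part of Tspo in the whole body, after recombination by Cre under the protamine promoter, which is active in the male germ line. RNA of 9 mice per genotype was combined in pools of 3, which gave 3 WT and 3 KO libraries, so p-values measure the spread between pools and not between single mice.

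VEGF ligands drive the growth, survival and permeability of blood and lymphatic vessels. In the lung, Vegfa is known to come mainly from the alveolar epithelium and to act on the capillaries beside it through Kdr, while Flt1 binds the same ligand with high affinity and signals weakly. Angpt1, mostly from cells around the vessel, activates the receptor Tek (Tie2) and keeps vessels quiescent, and Angpt2, from the endothelium itself, can oppose it.

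None of the 10 genes passed the test between KO and WT. Levels are given as CPM, the usual depth-scaled count, here with TMM factors for the composition of each library. A positive log2 fold change means a higher level in KO. The edgeR quasi-likelihood test gave an adjusted p of 0.9999 for every one of the 10, with 5 genes higher and 5 lower in KO, where 50.8% of all tested genes were higher. The log2 fold changes ranged from −0.11 to 0.15 with a median of 0.02, against a median of 0.0022 over all tested genes. Of these 10 genes, 0 had an adjusted p under 0.05, and 0 had an unadjusted p under 0.05 by edgeR's quasi-likelihood test, edgeR's exact test, limma-voom or DESeq2. Over all tested genes the quasi-likelihood test gave 0.00676% with an adjusted p under 0.05, which was Tspo alone, and 1.88% with an unadjusted p under 0.05. The other 3 tools each put 1 gene past the adjusted threshold over the whole table. In 0 of the 10 genes did the WT and KO libraries fall into ranges that did not overlap, which was the case for 5.46% of all tested genes.

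The data bounded how large a change could have been missed. The 95% interval of the fold change lay within 1.5-fold in either direction for all 10 genes, and so also within 2-fold, against 75.5% and 93.2% of all tested genes. The standard errors of the 10 log2 fold changes were 0.11 to 0.17, with a median of 0.14 over all tested genes. The widest interval was that of Vegfc, the gene with the fewest counts, from −0.33 to 0.42.

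**Figure D1:**
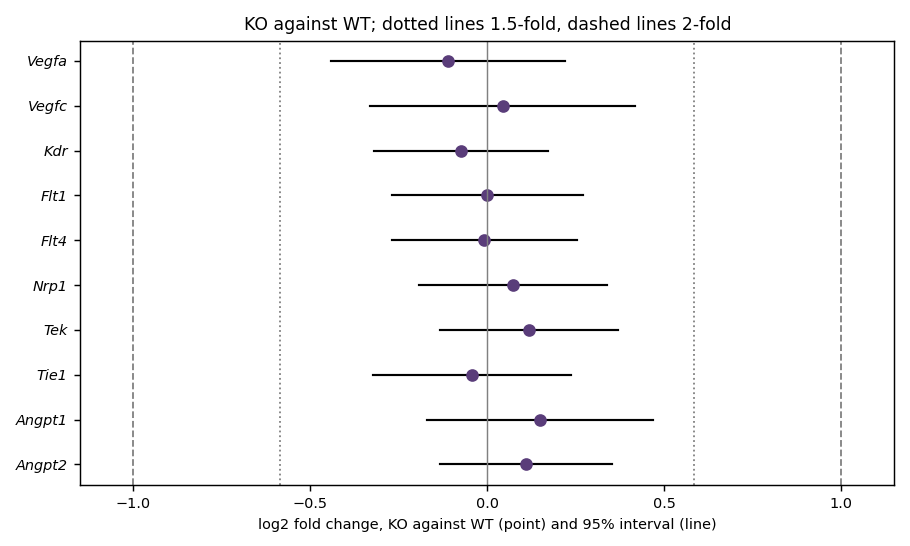
Log2 fold change of each gene, KO against WT, as a point, with its 95% interval from edgeR's quasi-likelihood fit as a line (n = 3 pools per genotype). The dotted and dashed vertical lines mark changes of 1.5-fold and 2-fold; all 10 intervals cross 0 and lie inside the dotted lines.

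The targeted gene separated the genotypes. The level of Tspo was 154 ± 1.61 CPM (SD, n = 3 pools) in WT against 21.0 ± 1.14 CPM in KO, with a log2 fold change of −2.87 (SE 0.10, adjusted p = 1.42e-07 by edgeR's quasi-likelihood test). Totals over genes were 9617086 to 11942318 counts per library. In 2 WT libraries there were departures from the rest. In WT library 2, the summed skeletal muscle markers reached 243 CPM, against 17.6 to 23.0 CPM in the other libraries, and those of squamous epithelium 144 CPM against 4.44 to 6.70 CPM. WT library 3 had 11.4% of its counts in Rn45s, which encodes the ribosomal RNA precursor, and the other 5 had 0.224% to 0.427%. Log2 fold changes with 1 library left out are given with each gene where they moved most.

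Vegfa was the most abundant of the set and the only one with several RefSeq rows, 6 of them, which differ in their exons. Its coding exons 6 and 7 are the ones that alternative splicing includes or skips, and they encode basic stretches that hold the protein to heparan sulphate in the matrix and, for exon 7, to Nrp1. Both are shown because the deposited rows separate their counts. They lie on the minus strand at chr17:46022277-46022348 (exon 6, 72 bp) and chr17:46020991-46021122 (exon 7, 132 bp) of mm10, and the sequences, 5′ to 3′, are those of GENCODE M21 transcripts.
Exon 6: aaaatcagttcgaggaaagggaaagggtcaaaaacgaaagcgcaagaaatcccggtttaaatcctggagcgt
Exon 7: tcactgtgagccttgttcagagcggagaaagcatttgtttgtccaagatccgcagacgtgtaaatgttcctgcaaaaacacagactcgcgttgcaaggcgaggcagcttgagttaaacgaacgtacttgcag

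The splice junctions that follow exon 5 tell the 3 forms apart, and in the following lines capitals mark the first 15 bases after the junction. The row with both exons (NM_001025250) has the first, the row without exon 6 (NM_009505) the second, and the row without either exon (NM_001025257) the third.
Exon 5 to exon 6: aacaaagccagaaaaAAAATCAGTTCGAGG
Exon 5 to exon 7: aacaaagccagaaaaTCACTGTGAGCCTTG
Exon 5 to exon 8: aacaaagccagaaaaATGTGACAAGCCAAG

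Of the ligands, Vegfa (chr17:46016993-46032377, minus strand) stood at 729, 868 and 729 CPM in WT libraries 1, 2 and 3 and at 601, 686 and 866 CPM in KO libraries 1, 2 and 3. The highest WT and the highest KO library were nearly level, and the genotypes overlapped. The WT mean was 775 ± 80.3 CPM and the KO mean 718 ± 135 CPM (SD, n = 3 pools, as for all means that follow), with a log2 fold change of −0.11 (SE 0.15, 95% interval −0.44 to 0.22). With 1 library left out it ran from −0.27, without KO library 3, to −0.00098, without KO library 1, and it was −0.023 without WT library 2. Its row with both exons had 6228 to 10031 counts per library.

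Vegfc (chr8:54077532-54186454, plus strand), the ligand of Flt4 that drives lymphatic growth, was the least abundant. Its level was 12.8, 18.6 and 15.2 CPM in WT and 16.2, 13.7 and 18.2 CPM in KO, from 130 to 215 counts per library. WT library 2 was the highest and WT library 1 the lowest, so the WT range enclosed the KO range. The means were 15.5 ± 2.94 CPM in WT and 16.04 ± 2.24 CPM in KO, with a log2 fold change of 0.04 (SE 0.17). Without WT library 2 it was 0.20. Its sign turned without WT library 1, at −0.084, and without KO library 3, at −0.056.

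Kdr (chr5:75932827-75979072, minus strand), also called VEGFR2, is the main signalling receptor for Vegfa on endothelium. It stood at 495, 525 and 545 CPM in WT and 453, 495 and 539 CPM in KO. The ranges overlapped, and KO library 1 was the lowest of the 6. The means were 522 ± 24.9 and 496 ± 43.2 CPM. The log2 fold change was −0.07 (SE 0.11, 95% interval −0.32 to 0.17). It was −0.14 without KO library 3, −0.015 without KO library 1 and −0.036 without WT library 3.

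Flt1 (chr5:147561604-147726438, minus strand), VEGFR1, binds Vegfa and also exists as a soluble form that sequesters it. Its level was 252, 320.5 and 242 CPM in WT and 265, 268 and 282 CPM in KO. The 3 KO libraries lay close together inside the WT range, and WT library 2 was the highest of the 6. The means were equal, 271 ± 42.8 CPM in WT and 271 ± 9.02 CPM in KO, and the log2 fold change was −0.00017 (SE 0.12, 95% interval −0.27 to 0.27). Without WT library 2 it was 0.14.

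Flt4 (chr11:49609679-49652739, plus strand), VEGFR3, is the receptor for Vegfc and marks lymphatic endothelium, and it is also present on some blood capillaries. It stood at 80.6, 102 and 80.0 CPM in WT and 81.4, 85.9 and 93.7 CPM in KO. Here too WT library 2 was the highest and the KO range lay inside the WT range. The means were 87.4 ± 12.3 CPM and 87.0 ± 6.20 CPM, with a log2 fold change of −0.0087 (SE 0.12), which was 0.12 without WT library 2.

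Nrp1 (chr8:128358591-128505476, plus strand), a coreceptor that presents Vegfa to Kdr and also binds class 3 semaphorins, stood at 431, 509.8 and 542 CPM in WT and 487, 515 and 558 CPM in KO. WT library 1 was the lowest and KO library 3 the highest, and the other 4 lay between with no separation by genotype. The means were 494 ± 57.1 CPM and 519.9 ± 35.8 CPM, with a log2 fold change of 0.07 (SE 0.12, 95% interval −0.19 to 0.34). Without WT library 1 it was −0.016.

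Angpt1 (chr15:42424667-42676977, minus strand), the activating ligand of Tek, had the largest of the 10 log2 fold changes in size. It was 77.6, 83.4 and 116 CPM in WT and 98.3, 112 and 95.8 CPM in KO. WT library 3 was above every KO library, while WT libraries 1 and 2 were below every one. The means were 92.2 ± 20.5 CPM and 102 ± 8.60 CPM, with a log2 fold change of 0.15 (SE 0.15, 95% interval −0.17 to 0.47), which was 0.35 without WT library 3. Without WT library 1 it was 0.039, without WT library 2 0.082 and without KO library 2 0.077.

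Angpt2 (chr8:18690263-18741562, minus strand), which the endothelium stores and releases on activation, was 37.2, 29.9 and 34.7 CPM in WT and 37.2, 36.9 and 35.6 CPM in KO. The KO libraries lay close together near the upper end of the WT range, and WT library 2 was the lowest. The means were 34.0 ± 3.68 CPM and 36.6 ± 0.857 CPM, with a log2 fold change of 0.11 (SE 0.11, 95% interval −0.13 to 0.35). It was 0.024 without WT library 2 and 0.18 without WT library 1.

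Tek (chr4:94739086-94874976, plus strand), the receptor of both angiopoietins, was 505, 487 and 537 CPM in WT and 589.9, 576 and 494 CPM in KO. KO libraries 1 and 2 were above all WT libraries, and KO library 3 was within the WT range. The means were 509.8 ± 25.4 CPM and 553 ± 52.0 CPM, with a log2 fold change of 0.12 (SE 0.11, 95% interval −0.13 to 0.37). It was 0.19 without KO library 3 and 0.067 without KO library 1.

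Tie1 (chr4:118471191-118489849, minus strand), a related receptor without a strongly binding ligand of its own that pairs with Tek, was 413, 476 and 388 CPM in WT and 396, 372 and 472 CPM in KO. WT library 2 and KO library 3 were the highest and nearly equal. The means were 426 ± 45.4 CPM and 413 ± 52.1 CPM, with a log2 fold change of −0.04 (SE 0.13, 95% interval −0.32 to 0.24). It was −0.15 without KO library 3, and without WT library 2 the sign turned, to 0.044.

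**Figure D2:**
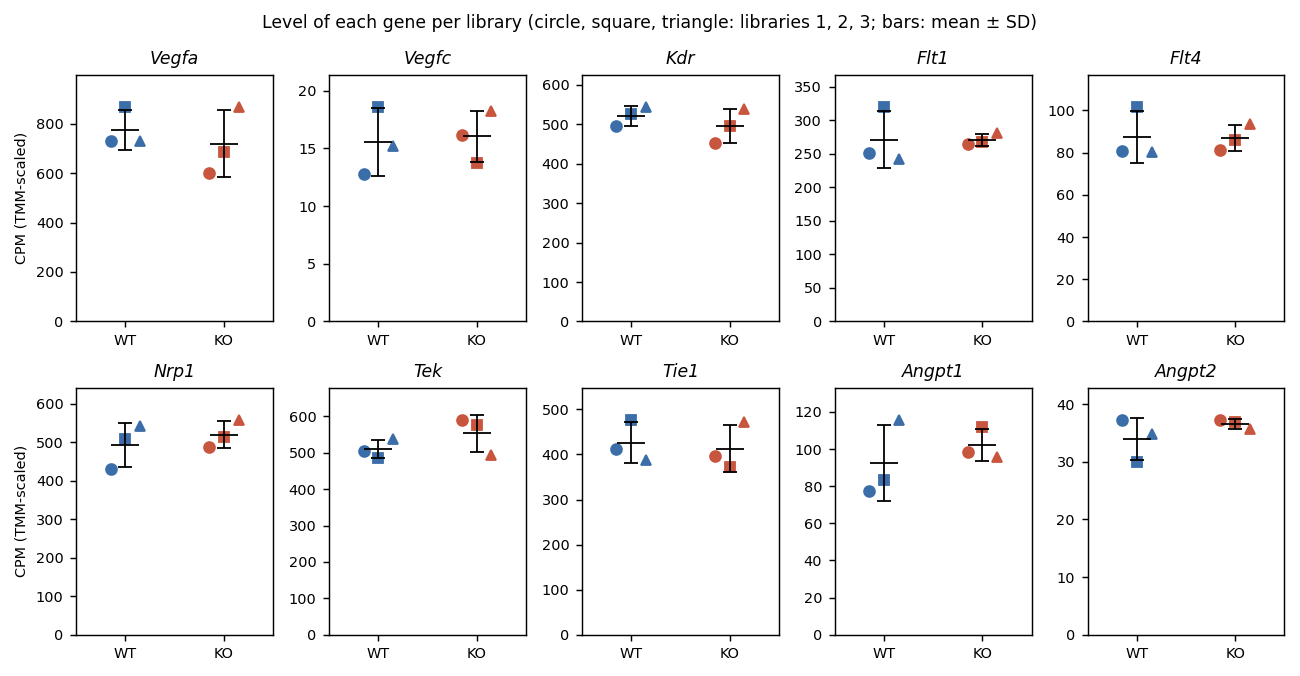
CPM (depth-scaled counts with TMM factors, linear axes from 0) of the 10 genes in each of 3 WT (blue) and 3 KO (red) libraries; circles, squares and triangles are libraries 1, 2 and 3, and bars show the mean ± SD. In every panel the WT and KO points overlap, and Vegfa in KO runs from 601 to 866 CPM.

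The expression levels of different genes were compared per length of transcript, as CPM per kilobase of the GENCODE M21 transcript linked to each RefSeq row. Vegfa was highest, at 378 ± 52.9 CPM per kilobase (SD over 6 libraries) for its linked 1973 bp transcript and 212 ± 29.6 for a longer form described below. Vegfc was lowest, at 6.44 ± 0.961. Among the receptors and coreceptor the order was Nrp1 at 141 ± 12.5, Tek at 114 ± 9.37, Tie1 at 103 ± 10.8, Kdr at 85.9 ± 5.85, Flt1 at 39.4 ± 4.01 and Flt4 at 13.9 ± 1.40 CPM per kilobase. Of the remaining ligands, Angpt1 stood at 22.8 ± 3.53 and Angpt2 at 9.91 ± 0.784 CPM per kilobase.

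With these lengths, the order held in 6 of 6 libraries for 8 of the 9 neighbouring pairs. The exception was Tek above Tie1, which held in 4 of 6. The ranges over the 6 libraries overlapped between Nrp1 and Tek, between Tek and Tie1, and between Tie1 and Kdr, and these neighbours differed by 1.23-fold, 1.11-fold and 1.19-fold. The other 6 pairs had separate ranges. The widest gap, 2.68-fold between Vegfa and Nrp1, rests on transcript lengths that are in doubt for both genes, and the next was 2.18-fold between Kdr and Flt1.

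Transcript length limited this order for Vegfa and Nrp1. The GENCODE transcript linked to the Vegfa row was 1973 bp long and left out the long form of the last exon. With that form the length was 3523 bp, and Vegfa came to 212 ± 29.6 CPM per kilobase, still above Nrp1. The row without exon 6 has a 3451 bp transcript with that form. It was only 116 to 164 counts per library below the counted row, so by their shared reads the longer length is the better measure. For Nrp1, the RefSeq gene reached 2806 bases beyond the span of its 3597 bp model, so its level per kilobase may be too high. Its place above Tek, Tie1 and Kdr is therefore not settled. For the other 8 genes the RefSeq gene reached at most 614 bases beyond the model.

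**Figure D3:**
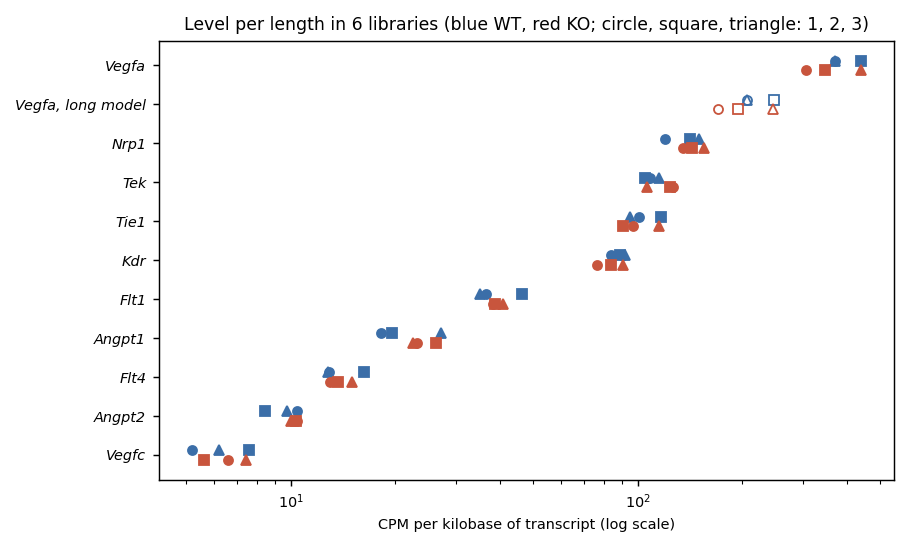
CPM per kilobase of transcript (log axis) of the 10 genes in the 6 libraries, WT blue and KO red, with circles, squares and triangles for libraries 1, 2 and 3. Open symbols show Vegfa with the long last exon, with a mean of 212 CPM per kilobase. The levels run from 378 CPM per kilobase for Vegfa with its linked transcript to 6.44 for Vegfc, and Tek and Tie1 overlap.

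Ratios between a ligand and its receptor, or between paired receptors, were compared within each library, where no scaling enters. A library's trend on GC content, described below, does not cancel in them. The ratios per kilobase use the 1973 bp Vegfa transcript and the 3597 bp Nrp1 model, whose lengths are in doubt. With longer lengths the ratios of Vegfa or Nrp1 to a receptor would be lower. Length enters WT and KO alike, so the comparison of genotypes does not depend on it. With 3 against 3 libraries the exact permutation test cannot go below p = 0.1, so none of the 8 ratios could pass the threshold. The ratio of Vegfa to Kdr, per kilobase, was 4.47 ± 0.474 in WT and 4.32 ± 0.443 in KO (exact permutation test, two-sided, p = 0.7). Flt1 to Kdr, the weakly signalling receptor against the main one, was 0.447 ± 0.0718 in WT and 0.472 ± 0.0274 in KO (exact p = 0.6), and Vegfa to Flt1 was 10.04 ± 0.534 and 9.21 ± 1.42 (exact p = 0.5). In each of these 3 ratios the genotypes overlapped.

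The ratio of Nrp1 to Kdr was the only one of the 8 in which the genotypes did not overlap. It was 1.43, 1.60 and 1.64 in WT libraries 1, 2 and 3 and 1.77, 1.71 and 1.70 in KO, so every KO library was above every WT library. The log2 difference was 0.15 (exact permutation p = 0.1, the smallest the design allows, and 0.8 after Benjamini-Hochberg adjustment over the 8 ratios).

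The angiopoietin ratios overlapped as well. Angpt2 to Angpt1, the opposing against the activating ligand, was 0.454 ± 0.109 in WT and 0.431 ± 0.0314 in KO (exact permutation p = 0.9). Angpt1 to Tek was 0.197 ± 0.0346 and 0.202 ± 0.0173 (exact p = 0.9), and Tie1 to Tek 0.955 ± 0.147 and 0.862 ± 0.196 (exact p = 0.5). Vegfc to Flt4, the lymphatic pair, was 0.452 ± 0.0427 and 0.471 ± 0.0542 (exact p = 0.5). The adjusted p was 0.9 for each of the 7 ratios other than Nrp1 to Kdr.

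The Vegfa rows allowed the counts of its alternative exons to be compared. Rows of the table that share exons share reads: where the exons of 1 row lay wholly inside another and skipped at least 1 of its exons, the longer row had at least as many counts in all 6 libraries in 712 of 729 pairs (97.7%). The difference between the row with both exons and the row without exon 6 was therefore read as the counts that touch exon 6 and no exon of the shorter row, so not exon 7. The difference between the row without exon 6 and the row without either was read as the counts that touch exon 7 and no shared exon, which includes reads that also touch exon 6. Both sets of 3 Vegfa rows gave identical differences in all 6 libraries.

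The WT libraries had 151, 140 and 119 counts in exon 6 and not exon 7, and the KO libraries 116, 140 and 164. Exon 7, with or without exon 6, had 509, 596 and 395 counts in WT against 409, 485 and 544 for KO. The counts in exon 6 and not exon 7, here called the exon 6 share, as a percentage of both were 22.9%, 19.0% and 23.2% in WT libraries 1, 2 and 3, and for KO 22.1%, 22.4% and 23.2%. WT library 2 was the lowest, with a 95% Wilson interval of 16.4% to 22.0%, which overlapped those of the other 5 libraries. These intervals cover counting error only.

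The exon 6 share was 21.7% ± 2.31 in WT and 22.6% ± 0.551 in KO, a difference of 0.869 percentage points (exact permutation test, two-sided, p = 0.8). Without WT library 2 the WT mean was 23.0%, above the KO mean (exact p = 0.4). The exon 7 counts made up 5.85% to 6.34% of the row's counts and those in exon 6 and not exon 7 1.40% to 1.91%. Reads over both exons are counted with exon 7, and a shorter exon holds fewer reads of its own, so this is not the share of transcripts with exon 6.

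**Figure D4:**
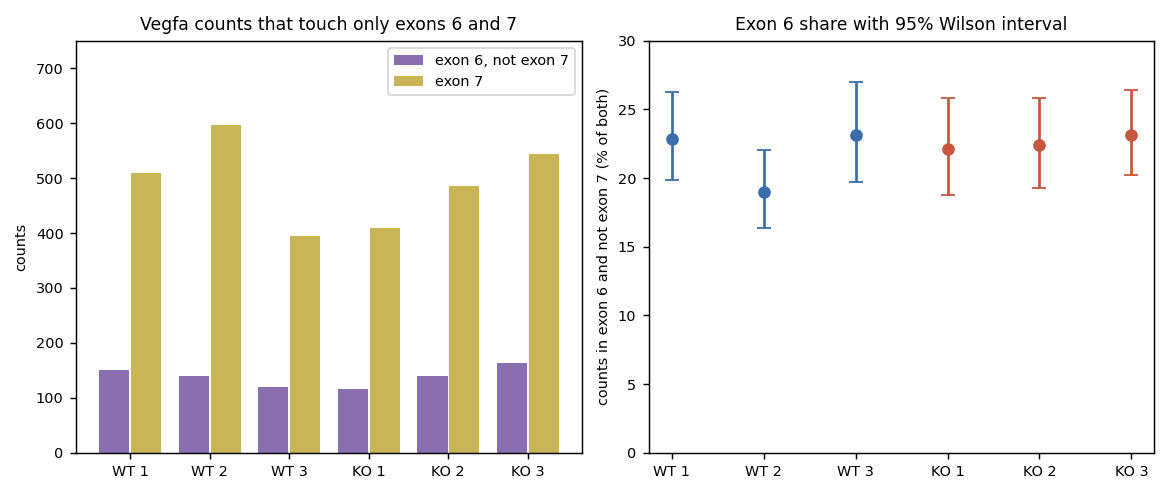
Vegfa counts in each library that touch exon 6 and not exon 7, or exon 7 with or without exon 6, and no other exon (left, bars from 0), and the first as a percentage of their sum with its 95% Wilson interval (right; WT blue, KO red). The percentages run from 19.0% in WT library 2 to 23.2% in WT library 3 and KO library 3, and the intervals of all 6 libraries overlap.

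The 6 Vegfa rows tested 1 by 1 gave log2 fold changes from −0.10 to −0.12, each with an adjusted p of 0.9999 by edgeR's quasi-likelihood test.

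Several of these genes had the same pair of highest libraries, with 1 library of each genotype. WT library 2 and KO library 3 were the 2 highest libraries for Vegfa, Vegfc, Flt1, Flt4 and Tie1, 5 of the 10 genes. This was the most frequent of the 15 possible pairs over all tested genes, at 18.6%. For Tek, Angpt1 and Angpt2 it was the other way, with both among the 3 lowest libraries. The median of the 10 log2 deviations from a gene's mean was 0.12 in WT library 2 and 0.10 in KO library 3, and −0.09 to −0.01 in the other 4.

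Over the table as a whole the share of genes with this pair rose with GC content and with transcript length. With genes split into 4 equal groups by GC content, WT library 2 and KO library 3 were the highest pair for 2.41% of genes in the group with the lowest GC content, and for 10.1%, 22.9% and 39.9% in the next groups. By length the shares were 8.24%, 17.1%, 22.4% and 27.4% from the shortest to the longest group. Vegfa (58.6% GC), Tie1 (58.2%) and Flt4 (56.5%) were in the highest group, and Angpt1 (39.3%) and Vegfc (44.9%) in the lowest. After each library's trend on GC content was removed, a correction chosen after seeing the data, the SD of log2 level over the 6 libraries fell from 0.20 to 0.13 for Vegfa, from 0.15 to 0.06 for Tie1 and from 0.14 to 0.09 for Flt4. It fell for 8 of the 10 genes, and for 65.1% of all genes with a value, but rose from 0.22 to 0.27 for Vegfc. The pair was still the highest for Vegfc, Flt1 and Tie1, 3 of the 10 genes where it had been 5, and for 14.9% of all genes with a value against 18.8% before. With the correction 0 of the 10 genes passed the threshold, and the log2 fold change of Vegfa was −0.10. The ratios of Vegfa to Kdr and of Tie1 to Tek, not corrected for GC content, were highest in WT library 2, at 4.96 and 1.11. In KO library 3 they came next, at 4.83 and 1.09. Those of Vegfa to Kdr are per kilobase of its 1973 bp transcript.

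Summed markers of some other cells also set these libraries apart, though single markers of the lists did not all do so. The summed arterial markers were 996 CPM in WT library 2 and 1164 CPM in KO library 3, against 784 to 918 CPM in the other 4, and the summed airway epithelial markers were 21070 and 21611 CPM against 23760 to 32551 CPM. Most of the airway sum was Scgb1a1, at 18483 CPM in WT library 2 and 18626 CPM in KO library 3. Foxj1 of the same list was highest in KO library 3, at 108 CPM. Bmx of the arterial list was lowest in these libraries, at 9.43 and 11.0 CPM. The part of other cells in the levels of the 10 genes was not tested.

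**Figure D5:**
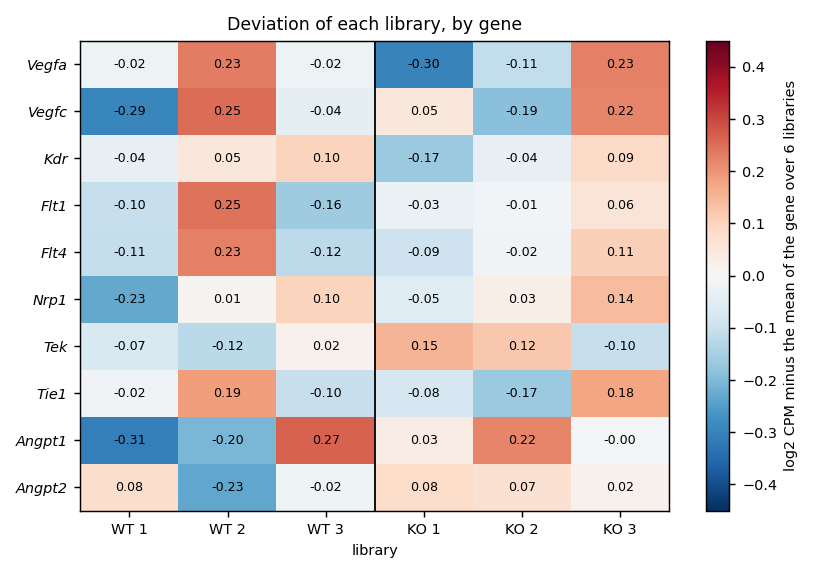
Log2 CPM of each gene in each library minus the mean of that gene over the 6 libraries (colour and printed value; red higher, blue lower, WT left and KO right of the line). WT library 2 and KO library 3 are both red for Vegfa, Vegfc, Flt1, Flt4 and Tie1, and both blue for Tek. For Angpt1 and Angpt2, WT library 2 is blue, and KO library 3 is at −0.0042 and 0.0181.

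Other genes of both pathways were described by lists, with no test of a list. Of the 6 pathway lists, 0 genes had an unadjusted p under 0.05 by edgeR's quasi-likelihood test. Of the other VEGF ligands and coreceptor, Vegfb, Pgf, Figf (VEGF-D) and Nrp2, 1 was higher and 3 were lower in KO and 0 of 4 passed the test, with a median log2 fold change of −0.04. Figf, abundant in lung fibroblasts, stood at 27.2 ± 1.79 CPM in WT and 29.1 ± 6.82 CPM in KO. Vegfb was 18.2 ± 2.98 and 17.6 ± 1.88 CPM, and Nrp2, the coreceptor of the lymphatic arm, 72.9 ± 8.04 and 71.5 ± 5.15 CPM.

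Among 8 modulators and mediators of angiopoietin and Tie signalling, 5 were higher and 3 lower in KO, 0 passed the test and the median was 0.05. Ptprb (VE-PTP), the phosphatase that restrains Tek, was 1400 ± 136 CPM in WT and 1500.3 ± 15.7 CPM in KO, with a log2 fold change of 0.10 (SE 0.13). The smallest unadjusted p by edgeR's quasi-likelihood test in this list was 0.160, for Tnip2, an inhibitor of NF-kappaB signalling that binds Tek, at 34.8 ± 1.14 and 31.1 ± 2.65 CPM. Dok2, an adaptor that Tek recruits, was 11.1 ± 1.52 and 9.58 ± 1.35 CPM.

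Of 22 transducers of VEGF receptor signals, 11 were higher and 11 lower, 0 passed the test and the median was −0.01. Sh2d2a (TSAd), the adaptor that links Kdr to Src, was the 1 gene of the 22 whose genotypes did not overlap, where 5.46% of all tested genes did not. It stood at 8.23, 7.96 and 7.49 CPM in WT and 6.75, 6.29 and 6.20 CPM in KO, so every KO library was lower, with a log2 fold change of −0.30 (SE 0.16, unadjusted p = 0.0902 and adjusted p = 0.9999 by edgeR). Cav1, the coat protein of endothelial caveolae, was the most abundant, at 1380.0 ± 135 and 1519 ± 184 CPM. Nck1, an adaptor of the actin response to Kdr, was 50.7 ± 4.05 and 56.5 ± 7.13 CPM.

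The oxygen-sensing genes, which set Vegfa transcription through the hypoxia-inducible factors, had 6 higher and 3 lower of 9, 0 past the test and a median of 0.05. Epas1 (HIF-2alpha), the form that prevails in endothelium, was 3692 ± 369 CPM in WT and 3783 ± 127 CPM in KO, with a log2 fold change of 0.04 (SE 0.15). The widest values of the list belonged to genes with low counts. Hif3a was 3.26 ± 1.31 and 5.06 ± 1.55 CPM, with a log2 fold change of 0.64 (SE 0.33), and Egln3, a prolyl hydroxylase, 3.86 ± 2.19 and 2.68 ± 0.277 CPM, with −0.55 (SE 0.36). In both the genotypes overlapped.

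Of 7 genes that VEGF induces in endothelium, 5 were higher and 2 lower, 0 passed the test and the median was 0.12. The 2 lower genes had the largest log2 fold changes of the list in size, Nr4a1 at −0.37 (SE 0.31) and Egr3 at −0.43 (SE 0.35). In both the genotypes overlapped. Apln, the ligand apelin, was the 1 of the 7 that did not overlap between genotypes (5.46% of all tested genes), at 57.3, 64.2 and 60.8 CPM in WT and 65.3, 66.9 and 77.3 CPM in KO. Every KO library was above every WT library, and the log2 fold change was 0.20 (SE 0.11, unadjusted p = 0.0864 and adjusted p = 0.9999 by edgeR). Rcan1, the calcineurin inhibitor, was 40.2 ± 5.13 and 45.7 ± 1.22 CPM, and Dll4, the tip-cell Notch ligand, 110.2 ± 11.5 and 116 ± 17.2 CPM.

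Class 3 semaphorins and plexins, which compete with VEGF for neuropilins or act beside them, had 6 higher and 6 lower of 12, 0 past the test and a median of −0.00078. Sema3c was the most abundant, at 595 ± 142 and 586 ± 9.47 CPM. Plxna2 was 83.0 ± 15.6 and 72.9 ± 7.09 CPM, and Plxna3 9.46 ± 1.31 and 8.40 ± 1.52 CPM.

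The receptors of this set are carried by endothelial cells, and in whole tissue fewer cells and less RNA per cell cannot be told apart. All 12 general endothelial markers were detected, 8 higher and 4 lower in KO with a median log2 fold change of 0.02. Their summed level was 6966 ± 430 CPM in WT and 7043 ± 396 CPM in KO (exact permutation test, two-sided, p = 0.8). Pecam1 (CD31) was 1068 ± 133 and 1134 ± 85.9 CPM, and Cdh5 (VE-cadherin) 1501 ± 212 and 1534 ± 136 CPM. Set against the summed counts of these markers, Kdr came to 7.50% in WT and 7.06% in KO, and the exact permutation p of the 10 genes was 0.4 or more.

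By endothelial subtype, the markers of aerocytes, the wide capillary cells of the alveolus, had 4 higher and 1 lower of 5 and a median of 0.18, and 3 of the 5 did not overlap between genotypes, against 5.46% of all tested genes. These were Fibin, Ednrb and Apln, the last of which is also in the list of VEGF-induced genes. Fibin was 71.8, 77.5 and 83.2 CPM in WT and 122, 93.4 and 84.5 CPM in KO, with a log2 fold change of 0.37 (SE 0.14, unadjusted p = 0.0206 and adjusted p = 0.9999 by edgeR). Ednrb, the endothelin B receptor, was 136 ± 6.39 and 154 ± 8.34 CPM. The other markers, Car4 and Tbx2, were 174 ± 20.9 and 186 ± 32.5 CPM, and 373 ± 55.9 and 352 ± 75.3 CPM. The summed level of the 5 was 821 ± 30.2 and 861 ± 76.4 CPM (exact permutation p = 0.4).

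The general capillary list had 3 higher and 2 lower of 5 (median 0.03), the arterial list 4 higher and 3 lower of 7 (median 0.13), and the venous list 0 higher and 4 lower of 4 tested (median −0.12). The lymphatic list had 3 higher and 1 lower of 4 tested (median 0.05). Prox1, the transcription factor that defines lymphatic endothelium, was low, at 2.19 ± 0.218 and 2.22 ± 0.737 CPM. In these lists, 0 genes passed the test and 0 did not overlap.

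Of the cells that supply the ligands, the alveolar type 1 list, a known source of Vegfa, had 6 higher and 2 lower of 8 (median 0.09), with Ager at 1472 ± 187 and 1658 ± 104 CPM. The alveolar type 2 list had 8 higher and 0 lower (median 0.12). Sftpc (surfactant protein C) was the 1 of them without overlap, at 18350.3 ± 1040 and 21991 ± 2049 CPM, where 5.46% of all tested genes had none. The airway list had 4 higher of 4 (median 0.16). Pericytes and smooth muscle, a known source of Angpt1, had 5 higher and 4 lower of 9 (median 0.04), and Pdgfrb was 197 ± 34.5 and 204 ± 61.5 CPM. The 2 of the 9 without overlap (5.46% of all tested genes) were channel subunits of pericytes with lower levels in KO, Kcnj8 at 11.2 ± 0.316 and 10.2 ± 0.826 CPM and Abcc9 at 17.4 ± 0.505 and 14.8 ± 0.620 CPM, with log2 fold changes of −0.14 (SE 0.15) and −0.23 (SE 0.13). For Kcnj8 the lowest WT library, at 10.998 CPM, and the highest KO library, at 10.996 CPM, were nearly equal. Platelet markers, whose cells store VEGF, had 3 higher and 3 lower of 6 (median −0.01). In these lists too, 0 genes passed the test, and over the endothelial, epithelial, pericyte and platelet lists Fibin was the 1 gene with an unadjusted p under 0.05 by edgeR's quasi-likelihood test.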

How the data were processed

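Values in the deposited table are raw counts for each transcript, made by the authors from paired-end reads and not normalized. The submitters' processing notes name TopHat and mm10, while the counting tool and its annotation and strandedness are not given in the sources used. Of its 64529 rows, 31176 are RefSeq transcripts and 33353 are FANTOM3 clones, which were not used. In 49 rows a date stood for the gene name, and 48 names were restored by accession. Each of 23473 genes was taken by its largest RefSeq row.

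The software was edgeR 4.0.16 with limma 3.58.1, and DESeq2 1.42.0 under R 4.3.3. filterByExpr (minimum count 10, minimum total 15) left 14802 genes, which were scaled by TMM and tested by edgeR's quasi-likelihood test, with p adjusted by Benjamini-Hochberg and called under 0.05. The pipeline was tested on simulated data. Single values were compared by exact permutation tests. No library repeated another.

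The 10 genes, the lists of pathway genes and of cell type markers, and the tests were chosen with earlier results of these data known. The text names Tspo, the 10 genes, from each pathway list the genes past the threshold or else the 2 with the smallest p and the most abundant 1, the first 2 of a marker list, and the genes most like Kdr and Vegfa. Apln, Fibin, Kcnj8 and Abcc9 are also given for having no overlap between genotypes, Car4, Tbx2 and Pgf to complete a list. Nr4a1 and Egr3 are given as the lower genes of their list. The rule takes some genes that the text leaves out. Lists of neutrophil, cardiac, skeletal muscle, fat and squamous markers are given with the other observations. Gene positions are those of RefSeq for GRCm38, the assembly of mm10. GC content and lengths are those of GENCODE M21 transcripts, which 14250 tested genes had.

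Alternatives were RLE scaling, no composition scaling, scaling on endothelial markers, no filter, a stricter filter, limma-voom, DESeq2 and edgeR's exact test, each library left out, a replicate block, summed rows, each row by itself, a threshold of 0.1, and leaving out Rn45s with the 20 top genes. Leaving out both departing WT libraries, the GC correction and the longer Vegfa transcript were chosen after seeing the data.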

Additional observations from a re-analysis of the deposited data

How the results depend on the processing

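Over 20 alternatives, 0 of 200 log2 fold changes of the 10 genes passed the threshold, and Vegfa, Tek and Angpt1 kept their sign in all of them. Genes past the threshold over the whole table numbered 1 in all alternatives but 1: without WT library 1 there were 2, Tspo and Gdpd3 (range 1 to 2 with 1 library left out). Flt1, near 0, turned sign to 0.00011 with RLE scaling, 0.032 with no composition scaling, 0.0031 with DESeq2, 0.013 with limma-voom, 0.0095 with no filter, 0.015 with each row by itself and 0.0048 without Rn45s and the 20 most abundant genes. Flt4 turned to 0.026 with no composition scaling, 0.0012 with no filter, 0.0060 with each row by itself and 0.0096 with the GC correction. Without WT libraries 2 and 3, Angpt1 was 0.40, Vegfc 0.33, Nrp1 0.27, Tek 0.13 and Vegfa −0.022. The sign turned for the others, with Flt1 at 0.11, Flt4 at 0.11, Kdr at 0.0020, Tie1 at 0.0014 and Angpt2 at −0.021. That fit assumes that the lone WT library varies like the others. With 1 library left out, the log2 fold change ran from −0.084 to 0.20 for Vegfc, −0.016 to 0.15 for Nrp1, −0.069 to 0.14 for Flt1, −0.064 to 0.12 for Flt4, −0.15 to 0.044 for Tie1, −0.27 to −0.00098 for Vegfa, −0.14 to −0.015 for Kdr, 0.067 to 0.19 for Tek, 0.039 to 0.35 for Angpt1 and 0.024 to 0.18 for Angpt2. The log2 difference of the ratios ran from −0.021 to 0.21 for Flt1 to Kdr, −0.13 to 0.032 for Vegfa to Kdr, −0.024 to 0.15 for Vegfc to Flt4, −0.21 to 0.13 for Angpt2 to Angpt1 and −0.057 to 0.19 for Angpt1 to Tek, while Nrp1 to Kdr, Vegfa to Flt1 and Tie1 to Tek kept their sign, at 0.096 to 0.19, −0.25 to −0.033 and −0.34 to −0.044. The difference in the Vegfa exon 6 share ran from −0.463 to 1.60 percentage points. Libraries with the same replicate number did not deviate together (r = 0.12, −0.22 and −0.26), and the fit with a replicate block called 1 gene and 0 of the 10, with Flt1 at 0.011. No composition scaling moved the median of all genes by 0.04. Pools of 3 mice and 3 libraries per genotype limit what could be detected, as do 130 to 215 counts per library for Vegfc.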

Other observations

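The genes whose level followed that of Kdr most closely over the 6 libraries, by the SD of the log2 ratio over all tested genes, were Pfas (SD 0.01), Parp3 (SD 0.02) and Ttc13 (SD 0.03). The closest of the other 9 genes of the set was Nrp1 (SD 0.11), at rank 1517. For Vegfa the closest were Ptprs (SD 0.03), Nav2 (SD 0.03) and Vangl1 (SD 0.04), and the closest of the set was Tie1 (SD 0.11), at rank 576. These are descriptions over 6 libraries that differ in depth and in their trend on GC content. The part of these differences in the likeness was not tested.

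Markers of some cells outside the vessel wall differed widely between pools. Summed neutrophil markers were 387, 216 and 633 CPM in WT and 427, 207 and 179 CPM in KO, and 6 of 6 tested were lower in KO with a median log2 fold change of −0.62. Skeletal muscle markers had 4 lower of 4 tested (median −1.82), squamous markers 2 lower of 2 tested (median −1.27) and fat markers 5 lower of 6 (median −0.53), with fat highest in WT library 2, at 264 CPM against 95.9 to 186 CPM. The summed skeletal muscle and squamous markers were high in WT library 2 alone: without it the summed skeletal muscle markers were 21.0 and 22.9 CPM in WT against 17.6 to 22.2 CPM in KO, and the squamous ones 6.42 and 5.38 CPM against 4.44 to 6.70 CPM. Cardiac markers had 4 higher and 2 lower of 6 (median 0.07). In these lists 0 genes passed the adjusted threshold by edgeR's quasi-likelihood test, and 1 neutrophil, 4 skeletal muscle, 1 squamous, 2 fat and 1 cardiac genes had an unadjusted p under 0.05, against 1.88% of all tested genes. The other 3 tools put 1 gene of the whole table past the adjusted threshold.

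The Vegfa rows also allowed another comparison. The sequence that only the first set of 3 rows holds made up 27.7% to 33.8% of the counts of the main Vegfa row. The mean was 30.7% in WT and 32.0% in KO (exact permutation test, two-sided, p = 0.6). Where this sequence lies in the transcript was not established.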
